A study of Mus musculus with 6 samples.

Results

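The genes described here are the cyclins, the cyclin-dependent kinases (CDKs), their inhibitors and activating phosphatases, the E2F and pocket protein families, and the Myc family, as expressed in the regrowing mouse prostate. They were chosen as a list of 44 gene symbols. Of these, 43 were represented among the 20263 genes measured, and Cdkn2d, an inhibitor of Cdk4 and Cdk6, had no probe set matched to it. The tissue came from 3 Gli1-/- mice and 3 wild-type mice, 1 mouse per array. Every mouse, in either group, was castrated at 8 weeks of age, carried a subcutaneous testosterone pellet from 2 weeks later, and was 10 weeks old per the labels. The ventral and dorsolateral prostate lobes were taken after 3 days of testosterone. Gli1-/- is labelled as a loss-of-function genotype, and neither the strain nor the part of the gene that is lost is stated by the labels. Each array measured whole-lobe RNA, so that fewer cells of a type and less RNA per cell cannot be told apart.

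Cyclins bind and activate CDKs, and successive cyclin-CDK pairs drive a cell through its division cycle. D-type cyclins with Cdk4 or Cdk6, and then E-type cyclins with Cdk2, phosphorylate the pocket proteins, which releases E2F factors to transcribe the genes of DNA synthesis. Cyclin A and cyclin B with Cdk1 then take the cell into mitosis, while the INK4 and CIP/KIP proteins hold the kinases back. In the regressed prostate few epithelial cells divide, and androgen given after castration brings many of them back into the cycle. Gli1 is a transcription factor and target of Hedgehog signalling, and cyclin D genes and Mycn are known Hedgehog-response genes in other mouse tissues.

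None of the 43 measured genes passed the test across all genes. The lowest adjusted p was 0.352, from limma's moderated test with Benjamini-Hochberg adjustment over 20263 genes, of which 0.0197% were called (0.00987% lower and 0.00987% higher). Most of the listed genes nevertheless read lower in the Gli1-/- prostates: 33 of 43 had a log2 change below 0, against 51.5% of all genes. Their median log2 change was -0.15, beside -0.005 for all genes, and without the first mutant it was -0.05. At an unadjusted p under 0.05, 8 were lower and 1 was higher, beside 4.58% and 5.93% of all genes. In 8 genes every Gli1-/- mouse lay below every wild-type mouse (6.01% of all genes), and in 1 gene every Gli1-/- mouse lay above (8.34% of all genes). The 8 are Ccne2, Ccng2, Wee1, E2f1, E2f2, E2f6, E2f7 and Rbl2, and the 1 is Ccnd2. Changes in this text are Gli1-/- minus wild type on the log2 intensity scale, and every adjusted p is limma's over all genes. The mean level of 36 of the 43 lay at or above the median level of all genes. Of the 8 lower genes, E2f2 and E2f7 lay below it. With the dimmer genes left out of the table, 6 were lower without overlap (7.04% of the genes kept). Levels of different genes are not compared, since probe sets differ in brightness. The SE of a change ran between 0.09 and 0.34 among these genes.

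**Figure D1:**
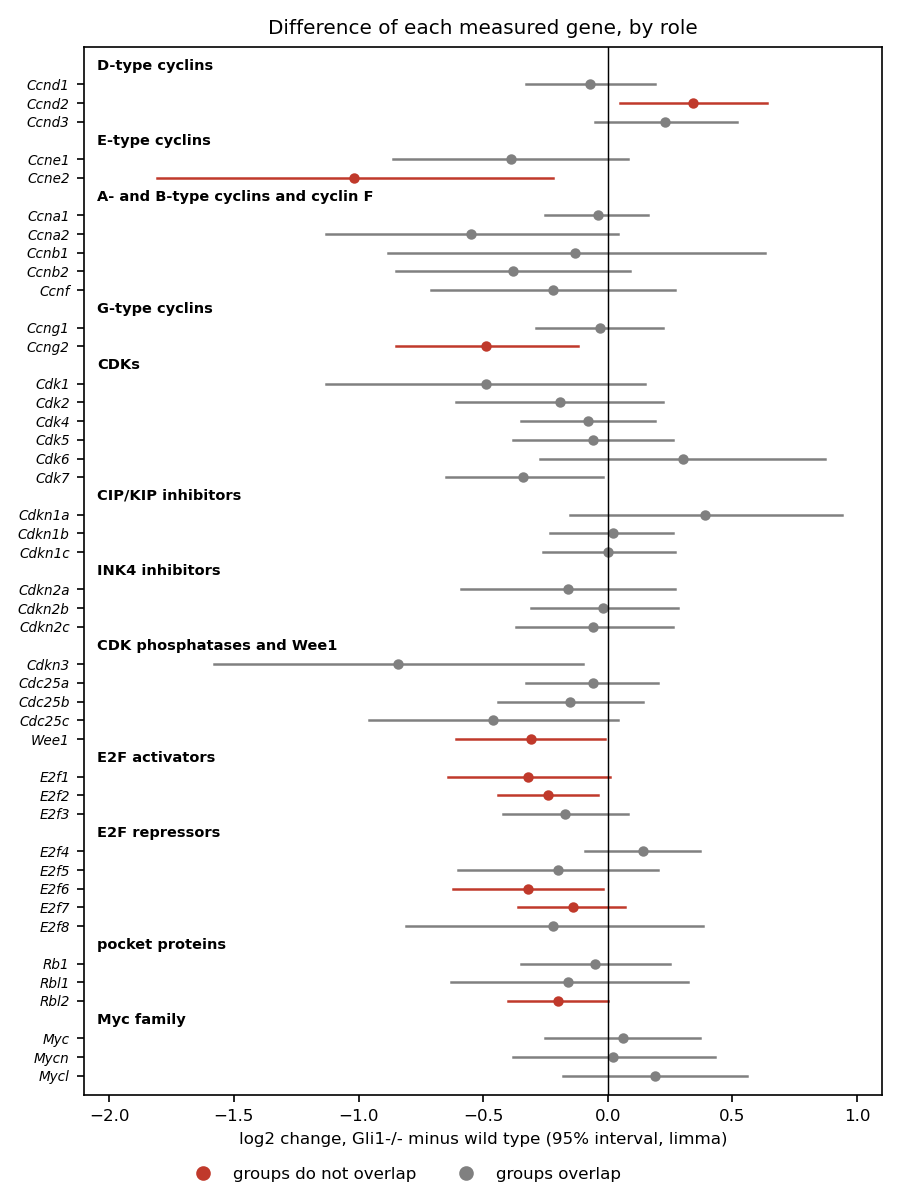
Log2 change of each of the 43 measured genes (horizontal axis, Gli1-/- minus wild type), grouped by role, with its 95% interval from limma. Red marks the 9 genes whose groups do not overlap, 8 of them to the left of 0 and Ccnd2 to the right; Ccne2 lies farthest left, at -1.02.

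The 3 D-type cyclins, which couple growth signals to Cdk4 and Cdk6, did not move together. Ccnd2 read 9.87, 9.55 and 9.96 in the Gli1-/- mice, against 9.53, 9.44 and 9.38 in the wild-type mice. All 3 mutants were above all wild types, although the second mutant cleared the highest wild type by only 0.023. The change of 0.34 (SE 0.13) is a 1.27-fold higher level, with an adjusted p of 0.417. After quantile normalization or median centring of the arrays the Ccnd2 groups overlapped. Ccnd3 was higher on average as well, by 0.23 (SE 0.12, adjusted p = 0.567), and its 3 probe sets gave 0.12 to 0.23. Ccnd1, the D-type cyclin most often linked to epithelial growth, stood at 10.48, 10.29 and 10.59 in the mutants, against 10.59, 10.56 and 10.43 in wild type. Those groups overlapped, with a change of -0.07 and a 95% interval between -0.33 and 0.19.

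The kinases that these cyclins activate also overlapped between the groups. Cdk4 gave 12.20, 12.50 and 12.36 in the Gli1-/- mice, against 12.32, 12.54 and 12.44 in the wild-type mice. Its change was -0.08 (95% interval from -0.35 to 0.19). Cdk6 was more variable, at 9.42, 8.74 and 8.94 in the mutants, against 9.12, 8.83 and 8.27 in wild type. The highest Cdk6 value belonged to the first mutant and the lowest to the third wild type, and the change of 0.30 had an interval between -0.27 and 0.87. It was 0.10 without the first mutant, 0.48 without the first wild type and 0.06 without the third.

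Both E-type cyclins, the partners of Cdk2 at the entry into S phase, were lower on average. Ccne2 showed the widest difference of the whole set, at 6.19, 7.52 and 7.24 in the Gli1-/- mice, against 7.56, 8.24 and 8.21 in the wild-type mice. The groups were separated by 0.041, the distance between the second mutant and the first wild type. Means were 6.98 ± 0.70 in the mutants and 8.00 ± 0.39 in wild type (SD, n = 3), a 2.03-fold lower level in the mutants (change -1.02, SE 0.34, limma adjusted p = 0.367). Without the first mutant the change was -0.62. The second, slightly dimmer Ccne2 probe set gave -0.98, and there the second mutant lay just above the first wild type, so that the groups overlapped. Ccne1 read 7.49, 8.33 and 8.10 in the mutants, against 8.43, 8.27 and 8.39 in wild type. Here the second mutant lay within the wild-type range and the other two below it (change -0.39, or -0.15 without the first mutant, SE 0.20, adjusted p = 0.563). Cdk2 itself stood at 7.68, 8.44 and 8.06 in the mutants, against 8.27, 8.29 and 8.20 in wild type. The second mutant was the highest of the 6 mice and the first the lowest, around a change of -0.19 (SE 0.18) that was -0.01 without the first mutant and -0.38 without the second.

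Cyclins A2, B1, B2 and F, which accumulate toward mitosis, and the mitotic kinase gene Cdk1 read low in the first mutant and near wild type in the second. Ccna2 was measured at 8.56, 9.62 and 8.83 in the Gli1-/- mice, against 9.67, 9.58 and 9.40 in the wild-type mice. Cdk1 showed the same order of mutants, at 8.81, 9.95 and 9.66, against 10.00, 10.15 and 9.73 in wild type. For both genes the first and the third mutant were below all wild types and the second was inside their range. The changes were -0.55 (SE 0.25, adjusted p = 0.507) for Ccna2 and -0.49 (SE 0.27, adjusted p = 0.588) for Cdk1. Without the first mutant they were -0.32 for Ccna2 and -0.16 for Cdk1, and without the second that of Ccna2 was -0.86. Ccnb1 spread as widely within the groups as between them, at 6.36, 7.47 and 6.79 in the mutants, against 7.49, 7.04 and 6.48 in wild type. Its interval ran between -0.88 and 0.63, and leaving out single mice turned the sign of its change, between -0.43 and 0.13. Ccnb2 read 8.55, 9.30 and 8.70 in the mutants, against 9.06, 9.44 and 9.20 in wild type. Ccnb2 and Ccnf differed by -0.38 (SE 0.20) and -0.22 (SE 0.21), in each case with the second mutant inside the wild-type range. Ccna1, a cyclin best known from the male germ line, hardly varied in any mouse (5.31 to 5.33 in the mutants, 5.30 to 5.44 in wild type).

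Promoter sequences are given for 3 genes that peak in G2 and mitosis, because the motifs known to time such genes can be read in them. Such promoters often carry a CHR element, bound by the MuvB complex, near CCAAT boxes bound by NF-Y, and some carry E2F sites. Each window runs from 250 bases before the annotated start to 50 from it on, taken from RefSeq on GRCm38.p6, 5′ to 3′ on the gene's strand. Capitals mark matches on either strand to E2F (TTTCCCGC, TTTCGCGC, TTTGCCGC or TTTGGCGC), CHR (TTTGAA or TTCGAA) and CCAAT. No 2 matches overlap in the windows shown. The windows are chr10:69352863-69353162 on the minus strand for Cdk1, chr9:70421505-70421804 on the minus strand for Ccnb2 and chr14:46760291-46760590 on the plus strand for Cdkn3, whose start lies 80 bases inside the gene's bounds.
Cdk1: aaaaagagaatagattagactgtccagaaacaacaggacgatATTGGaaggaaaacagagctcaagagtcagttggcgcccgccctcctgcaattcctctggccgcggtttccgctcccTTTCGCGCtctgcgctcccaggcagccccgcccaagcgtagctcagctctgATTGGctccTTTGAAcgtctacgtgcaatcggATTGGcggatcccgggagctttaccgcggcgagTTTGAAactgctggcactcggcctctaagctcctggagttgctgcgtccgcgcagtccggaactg
Ccnb2: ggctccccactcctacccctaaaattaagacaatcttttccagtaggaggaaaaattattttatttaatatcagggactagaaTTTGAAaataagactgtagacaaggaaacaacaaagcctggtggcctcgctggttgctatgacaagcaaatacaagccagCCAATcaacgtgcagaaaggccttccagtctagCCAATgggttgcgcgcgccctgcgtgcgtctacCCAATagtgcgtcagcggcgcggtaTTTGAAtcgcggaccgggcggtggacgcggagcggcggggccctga
Cdkn3: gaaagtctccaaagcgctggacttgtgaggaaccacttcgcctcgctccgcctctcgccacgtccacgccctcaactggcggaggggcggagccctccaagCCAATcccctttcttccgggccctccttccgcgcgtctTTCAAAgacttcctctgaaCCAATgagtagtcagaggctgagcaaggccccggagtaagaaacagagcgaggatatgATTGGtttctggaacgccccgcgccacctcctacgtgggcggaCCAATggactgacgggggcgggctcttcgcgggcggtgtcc

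In the Cdk1 window an E2F match began 131 bases before the start, and CHR matches began 71 and 15 bases before it. Ccnb2 held a CHR match 167 bases before the start and another beginning at base 5 of the transcript, with 3 CCAAT boxes between them. Cdkn3 held 1 CHR match, 111 bases before the start, and 4 CCAAT boxes. Among the 32 listed genes with a promoter entry, each counted by its outermost start, 9 held an E2F match (28.1%, beside 2.26% of all 32851 windows). A CHR match was found for 10 (31.2%, beside 19.2%) and a CCAAT box for 16 (50%, beside 37.4%). The E-box CACGTG, the core site of Myc, matched in Cdk4, Cdk6 and Cdk7 (9.38%, beside 7.15%). The Gli site GACCACCCA had no match in these 32 windows and was found in 0.253% of all windows. Entries were lacking for Ccna2, Ccnd1, Ccnd2, Ccne2, Cdc25c, Cdk5, Cdkn1c, E2f4, E2f5, Myc, Rb1 and Wee1. The E2f1 window, counted among the 32 with no E2F match, lies well inside that gene's annotated bounds. The shares of all windows count every window, also where a gene has several.

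**Figure D2:**
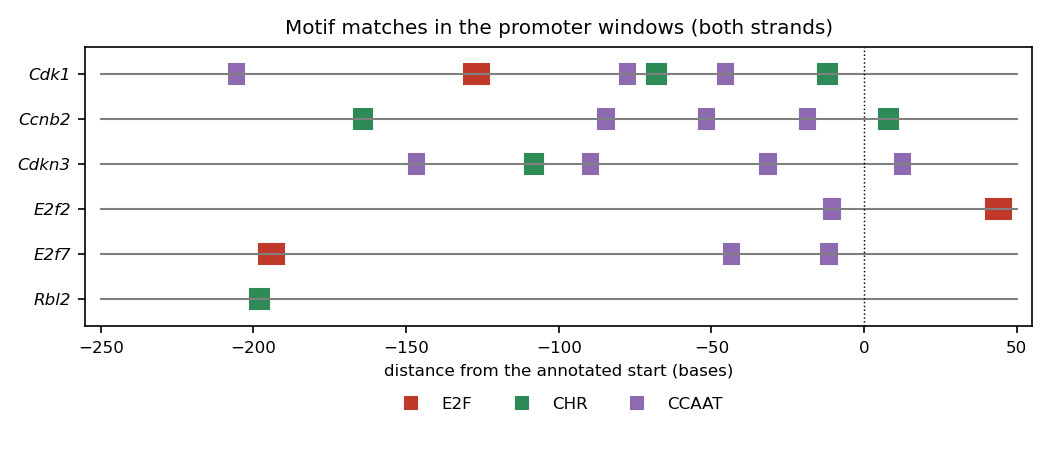
Position of E2F (red), CHR (green) and CCAAT (purple) matches in the promoter windows of 6 genes, in bases from the annotated start (dotted line). Cdk1 holds all 3 kinds, Ccnb2 and Cdkn3 hold CHR and CCAAT, E2f2 and E2f7 hold E2F and CCAAT, and Rbl2 holds CHR alone.

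The phosphatases and the kinase that set the state of Cdk1 were all lower on average. Cdkn3, a phosphatase that acts on CDKs, read 7.26, 8.50 and 7.44 in the Gli1-/- mice, against 8.22, 8.83 and 8.67 in the wild-type mice. The first and the third mutant were below the lowest wild type, whereas the second was inside the wild-type range. The change was -0.84 (SE 0.32, adjusted p = 0.426), a 1.79-fold lower level. Wee1, the kinase that keeps Cdk1 inactive until mitosis, stood at 8.61, 8.74 and 8.69 in the mutants, against 9.23, 8.95 and 8.79 in wild type. All 3 mutants were below all wild types, by a margin of 0.047, with a change of -0.31 (SE 0.13, adjusted p = 0.457), or -0.19 without the first wild type. Of the phosphatases that release Cdk1 and Cdk2 from that block, Cdc25c differed by -0.46 (SE 0.22), Cdc25b by -0.15 (SE 0.13) and Cdc25a by -0.06 (SE 0.11), each with overlapping groups.

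Cyclin G2, an atypical cyclin that is known for high levels in resting cells, went the same way as the dividing-cell genes. Ccng2 read 8.58, 8.89 and 8.71 in the Gli1-/- mice, against 8.89, 9.33 and 9.42 in the wild-type mice. The second mutant and the first wild type were 0.004 apart, so the separation of the groups rested on a difference far smaller than the spread within either. The change of -0.49 (SE 0.16) had the lowest adjusted p of the set, 0.352. Its relative Ccng1, a p53 target, differed by -0.03 (SE 0.11). Cdk7, the kinase of the CDK-activating complex and of the transcription factor TFIIH, was measured at 7.92, 8.30 and 8.02 in the mutants, against 8.22, 8.50 and 8.52 in wild type. Its second mutant lay inside the wild-type range (change -0.34, SE 0.14, adjusted p = 0.452). Cdk5, which acts mainly outside the division cycle, differed by -0.06 (SE 0.14).

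The CDK inhibitors showed no shared direction. Cdkn1a, which encodes the p53-induced inhibitor p21, read 9.59, 9.14 and 9.43 in the Gli1-/- mice, against 9.39, 9.13 and 8.46 in the wild-type mice. The third wild type was the lowest of the 6 mice, and without it the change of 0.39 (95% interval from -0.15 to 0.94) was 0.13, while without the first wild type it was 0.59. Cdkn1b, the gene of p27, stood at 9.40, 9.52 and 9.60 in the mutants, against 9.39, 9.59 and 9.50 in wild type. Its groups covered nearly the same range, with a change of 0.02 and an interval between -0.23 and 0.26. Cdkn1c, the gene of p57, differed by 0.00 (SE 0.11).

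In the INK4 group, whose proteins bind Cdk4 and Cdk6, the groups overlapped in all 3 measured genes. Cdkn2a read 7.07, 7.20 and 7.26 in the Gli1-/- mice, against 6.92, 7.39 and 7.69 in the wild-type mice. Its 2 probe sets, which represent different transcripts of a locus known to encode unlike proteins, gave changes of -0.16 and 0.05. The values by mouse come from the brighter probe set, that with -0.16. Which transcript encodes the inhibitor of Cdk4 and Cdk6 was not checked, so these values may not be those of the inhibitor. In the other probe set the mutants also lay inside the wild-type range. The change of -0.16 became 0.02 without the third wild type and -0.36 without the first. Cdkn2b was measured at 7.10, 7.05 and 7.16 in the mutants, against 6.98, 7.01 and 7.37 in wild type. All mutant values of both genes were inside the wild-type range. Cdkn2c differed by -0.06 (SE 0.14).

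Among the E2F factors, 4 of 8 were lower in every Gli1-/- mouse than in every wild-type mouse, beside 6.01% of all genes. E2f1, the classical activator of S-phase genes, read 8.07, 8.45 and 8.37 in the mutants, against 8.81, 8.47 and 8.57 in wild type. The margin was 0.012, between the second mutant and the second wild type, and the change was -0.32 (SE 0.14, adjusted p = 0.484), or -0.21 without the first mutant. E2f2, a second activator, gave 6.35, 6.40 and 6.40 in the mutants, against 6.60, 6.62 and 6.64 in wild type. Its change was small, at -0.24 (SE 0.09, adjusted p = 0.408), but the margin of 0.197 was the widest of the 9 genes whose groups do not overlap. E2f3, the third activator, differed by -0.17 (SE 0.11) with overlapping groups.

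The repressive and atypical factors were mixed. E2f6, which represses without pocket proteins, stood at 8.23, 8.46 and 8.57 in the Gli1-/- mice, against 8.61, 8.92 and 8.68 in the wild-type mice. Both of its probe sets separated the groups, with changes of -0.32 (SE 0.13, adjusted p = 0.456) and -0.31. E2f7, an atypical repressor that E2F activators themselves induce, read 6.46, 6.57 and 6.60 in the mutants, against 6.74, 6.64 and 6.69 in wild type. All 3 mutants were lower, by a margin of 0.035 (change -0.14, SE 0.09, adjusted p = 0.646). Its partner E2f8 differed by -0.22 (SE 0.26) and E2f5 by -0.20 (SE 0.17). E2f4, the main E2F of resting cells, was the 1 E2F gene with a positive change, 0.14 (SE 0.10).

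Of the 3 pocket proteins, which restrain E2F factors, Rbl2 alone separated the groups. The gene of p130, the pocket protein of resting cells, read 9.73, 9.71 and 9.75 in the Gli1-/- mice, against 9.93, 9.94 and 9.92 in the wild-type mice. The SD was 0.02 in the mutants and 0.01 in wild type, and the margin between them was 0.171. The change of -0.20 (SE 0.09, adjusted p = 0.467) is a 1.15-fold lower level. Rb1, the retinoblastoma gene, gave 8.62, 8.61 and 8.63 in the mutants, against 8.87, 8.72 and 8.41 in wild type. The mutants agreed closely there and lay in the middle of the wild-type range (change -0.05, 95% interval from -0.35 to 0.25). Rbl1, the gene of p107, differed by -0.16 (SE 0.20).

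The E2f2, E2f7 and Rbl2 promoters are shown because these genes were lower in every Gli1-/- mouse and have an entry at the gene's outer bound. Capitals mark the same motifs as above. The windows are chr4:136172024-136172323, chr10:110745189-110745488 and chr8:91069807-91070106, all on the plus strand.
E2f2: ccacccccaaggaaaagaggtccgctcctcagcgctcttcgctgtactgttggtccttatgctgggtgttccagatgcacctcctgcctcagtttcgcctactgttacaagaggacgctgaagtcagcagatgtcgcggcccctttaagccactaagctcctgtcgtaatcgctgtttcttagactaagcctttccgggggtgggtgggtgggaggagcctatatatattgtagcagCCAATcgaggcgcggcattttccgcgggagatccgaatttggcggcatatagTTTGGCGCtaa
E2f7: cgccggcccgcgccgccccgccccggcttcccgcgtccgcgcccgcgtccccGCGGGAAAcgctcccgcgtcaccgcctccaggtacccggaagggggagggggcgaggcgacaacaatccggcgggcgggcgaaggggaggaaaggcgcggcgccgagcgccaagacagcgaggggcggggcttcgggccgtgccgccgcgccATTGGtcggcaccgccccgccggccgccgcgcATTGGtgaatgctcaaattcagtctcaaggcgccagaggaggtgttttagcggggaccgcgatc
Rbl2: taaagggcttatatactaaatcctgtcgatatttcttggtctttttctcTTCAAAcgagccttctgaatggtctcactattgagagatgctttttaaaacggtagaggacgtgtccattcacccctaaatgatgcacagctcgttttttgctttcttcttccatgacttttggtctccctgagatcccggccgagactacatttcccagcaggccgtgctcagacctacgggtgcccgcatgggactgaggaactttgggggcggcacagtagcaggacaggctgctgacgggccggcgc

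E2f2 held its E2F match from base 40 of the transcript on, and E2f7 held 1 that began 198 bases before the start. A CHR match 201 bases before the start was the only capitalised motif in the Rbl2 window. The matches are a description of letters and say nothing of binding in these prostates.

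**Figure D3:**
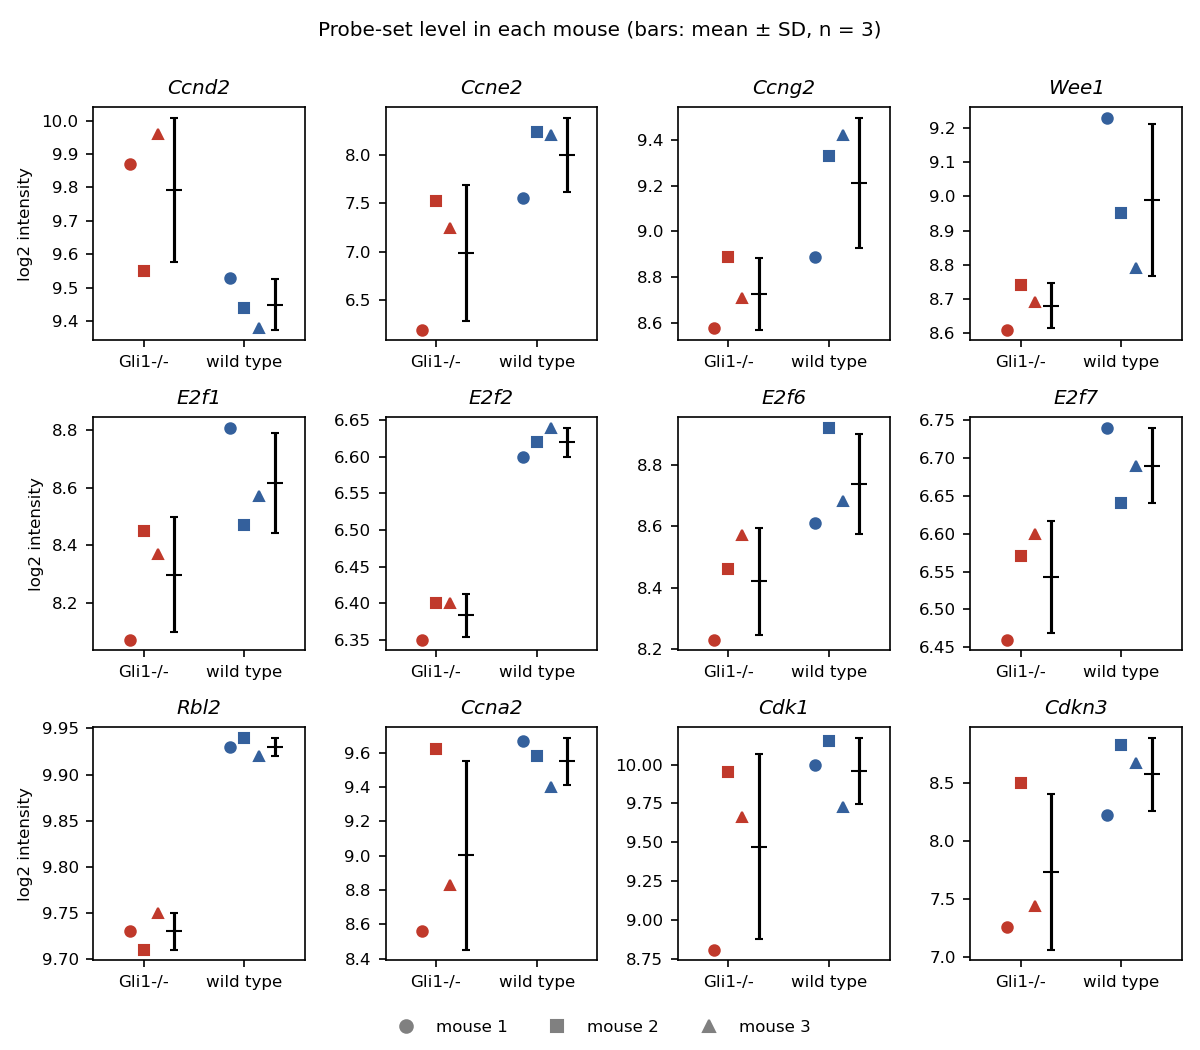
Log2 intensity in each Gli1-/- mouse (red, left) and each wild-type mouse (blue, right) for 12 genes, with the mean ± SD of 3 mice beside the points; the vertical scale differs between panels. In the panels of Ccnd2, Ccne2, Ccng2, Wee1, E2f1, E2f2, E2f6, E2f7 and Rbl2 the groups do not overlap, and in those of Ccna2, Cdk1 and Cdkn3 the second mutant lies among the wild types.

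The Myc family, whose proteins drive growth and cell cycle entry, overlapped between the groups in all 3 genes. Myc read 10.26, 9.84 and 9.91 in the Gli1-/- mice, against 10.08, 9.90 and 9.86 in the wild-type mice, with identical values in its 4 probe sets. The change was 0.06 (95% interval from -0.25 to 0.37). Mycn was measured at 6.26, 6.20 and 6.20 in the mutants, against 5.93, 6.05 and 6.61 in wild type, and the mutants lay inside the wild-type range. Its interval ran between -0.38 and 0.43. Mycl differed by 0.19 (SE 0.16).

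The genes differed in which mice carried the lower values. For 24 of the 43 the first mutant was the lowest of all 6 mice. The share of all genes was not taken for that count. The first mutant lay below all wild types in 26 of 43 genes (29.2% of all genes), the second mutant in 11 (18%) and the third in 18 (24.4%). Of 8 listed genes that peak in G2 and mitosis (Ccna2, Ccnb1, Ccnb2, Ccnf, Cdk1, Cdc25b, Cdc25c and Cdkn3), the first mutant was below all wild types in 8, the third in 6 and the second in 0. Their mean deviations from the 6-mouse mean were -0.60, 0.30 and -0.30 in the mutants, against 0.28, 0.30 and 0.02 in wild type. The 7 genes that peak at the G1/S boundary (Ccne1, Ccne2, E2f1, E2f7, E2f8, Cdc25a and Rbl1) gave -0.53, 0.08 and -0.05 in the mutants, against 0.25, 0.15 and 0.09 in wild type. The second mutant thus stood at the top of the range for the G2 and mitosis genes and just under the wild types for the G1/S genes. Medians of the change were -0.42 for the G2 and mitosis genes, -0.22 for the G1/S genes and -0.05 for the other 28. Without the first mutant these medians were -0.19, -0.10 and -0.03, and without the second they were -0.65, -0.35 and -0.04. The G1/S median was -0.12 without the first wild type and -0.34 without the third.

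**Figure D4:**
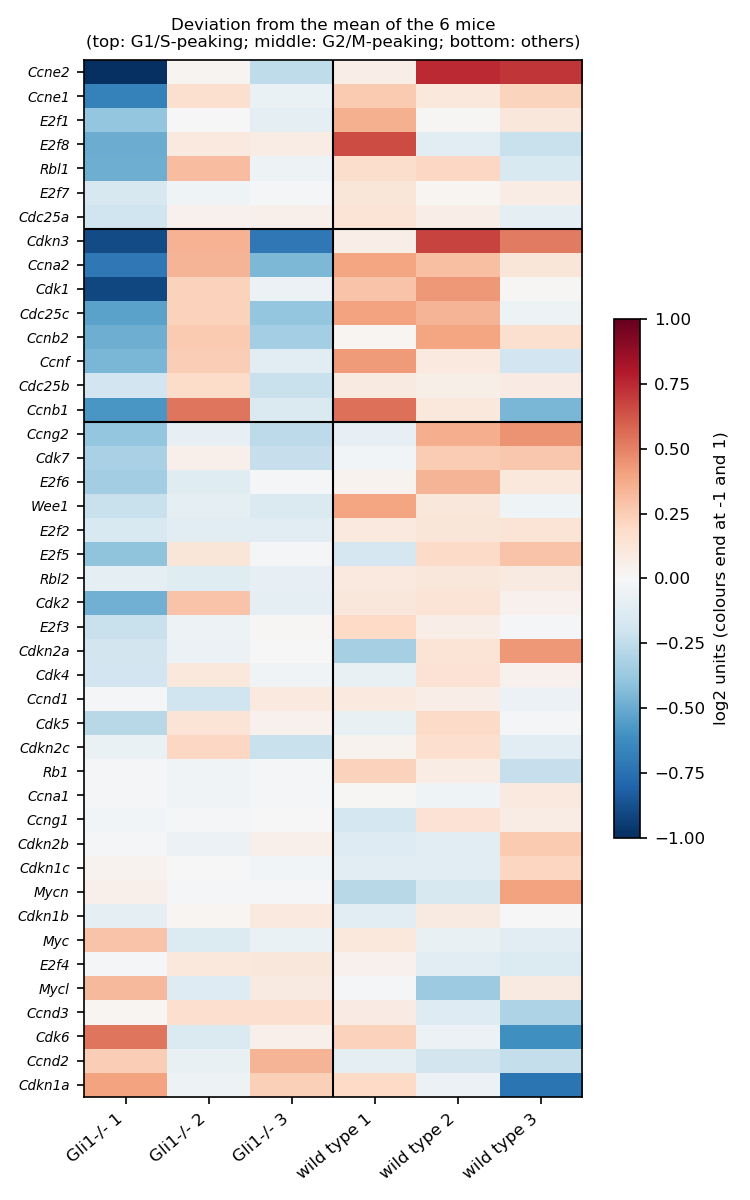
Deviation of each gene from its mean over the 6 mice, in log2 units, with Gli1-/- mice in the left 3 columns and wild-type mice in the right 3. The first mutant is blue (low) for all G1/S-peaking and G2/M-peaking genes, and the second mutant is red (high) for all G2/M-peaking genes.

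The counts above depended on these mice. Without the second mutant, 17 genes were lower in every remaining mutant than in every wild type (17% of all genes). Without the first wild type 13 were (19.9% of all genes), and without the third wild type also 13 (9.03% of all genes). The count of genes higher without overlap ran between 1 and 4 as single mice were left out, beside 11% to 18.4% of all genes. When the second mutant and the first wild type were left out together, 21 genes were lower without overlap (31% of all genes). Of the 43, 4 were then called lower, beside 3.46% of all genes, namely Ccna2, Ccnb2, Ccng2 and Cdkn3 (limma adjusted p = 0.0242 for Cdkn3, the lowest of them). This pair of mice was chosen with earlier results known. The second mutant was the one inside the wild-type range for Ccna2, Ccnb2 and Cdkn3, so leaving it out separated their groups by construction. For Ccng2 the mice left out were the closest pair across the groups. These calls therefore add no support for a difference. Without the first mutant 8 genes were lower without overlap (8.28% of all genes). The count of 8 lower genes at an unadjusted p under 0.05 (4.58% of all genes) dropped to 1 without the first mutant (2.33%) or the second wild type (2.66%). It was 3 without the third mutant (2.64% of all genes) and 4 without the third wild type (3.0%), so the share of all genes fell as well.

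Neighbouring genes of the same machinery, from lists that hold none of the 43, were mostly lower on average too. Of all genes 51.5% were below 0, and at an unadjusted p under 0.05 4.58% were lower and 5.93% higher. The lists come from the same 6 mice and are no independent support. The first mutant was the lowest mouse in 19 of the 20 mitotic genes and 20 of the 21 S-phase genes measured. All 20 mitotic genes were below 0, with a median of -0.44, and 0 of them were called while 4 had an unadjusted p under 0.05. The median was -0.28 without the first mutant and -0.24 without the first wild type. Anln, needed for cytokinesis, differed by -0.80 (SE 0.19, limma adjusted p = 0.221), Cenpf by -0.47, Hmmr by -0.70 and Aurka by -0.65. The 21 of 22 S-phase genes that were measured, all known E2F targets, were also below 0 (median -0.22, 0 called, 3 with an unadjusted p under 0.05). Their median was -0.05 without the first mutant, -0.34 without the second and -0.12 without the first wild type. Slbp, which binds histone messages, differed by -0.40 (SE 0.11), Prim1 by -0.64 and Rrm2 by -0.56. Among the 9 of 10 E2F partners and MuvB genes measured, 7 were below 0 (median -0.23, or -0.14 without the first mutant, 0 called, 2 with an unadjusted p under 0.05). The genes past that p were Tfdp1 and Tfdp2, the DNA-binding partners of E2F factors. Tfdp1 read 9.41, 9.65 and 9.37 in the Gli1-/- mice, against 9.79, 9.84 and 9.88 in the wild-type mice (change -0.36, SE 0.11, adjusted p = 0.307). Tfdp2 was lower in all 3 mutants as well (change -0.28, SE 0.10), while Mybl1 and Lin54, with changes of -0.43 and -0.23, overlapped.

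**Figure D5:**
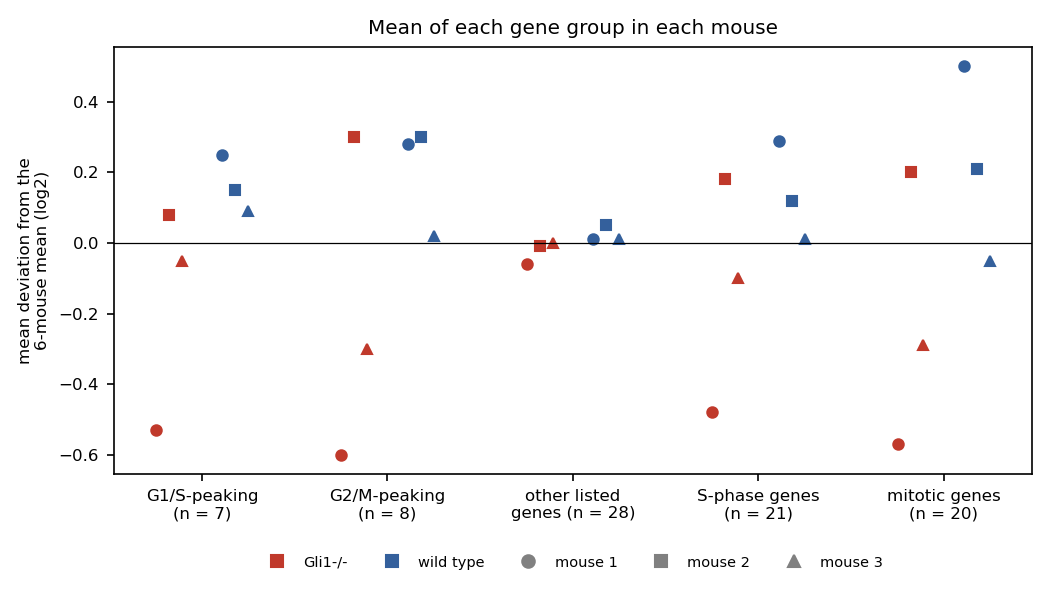
Mean deviation from the 6-mouse mean (log2 units) of 5 gene groups in each Gli1-/- mouse (red) and wild-type mouse (blue), with shapes for mouse number. The first and the third mutant lie below all wild types for the cell-cycle groups, the second lies among them except for the G1/S-peaking genes, and the other 28 listed genes stay between -0.06 and 0.05.

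Of the 21 of 22 ubiquitin ligase genes measured, which destroy cyclins and inhibitors, 16 were below 0 (median -0.14, 0 called, 3 with an unadjusted p under 0.05). With single mice left out the median ran between -0.22, without the second mutant, and -0.02, without the first, and it was -0.08 without the third mutant and -0.07 without the second wild type. Skp2, which marks p27 for destruction, read 7.31, 7.73 and 7.50 in the Gli1-/- mice, against 7.79, 7.88 and 7.82 in the wild-type mice. All 3 mutants were below all wild types there (change -0.32, SE 0.12, limma adjusted p = 0.43), while Skp1 (-0.43), the mitotic activator Cdc20 (-0.47) and Ube2c (-0.32) overlapped. The 6 CDK partners had a median of -0.25 and 1 unadjusted p under 0.05, that of Cks1b (-0.53, SE 0.21). That median was -0.13 without the first mutant, -0.39 without the second and -0.09 without the third wild type. Ccnh and Mnat1, which join Cdk7 in the CDK-activating complex, differed by -0.26 and -0.24, and Cks2 by -0.27. The 8 Myc partners had a median of -0.09 and none had an unadjusted p under 0.05, with Mxd4 at -0.15, Mxi1 at -0.14, Mxd3 at -0.16 and Mnt at 0.13. Mxd4 and Mxi1 were lower in all 3 mutants than in all wild types (2 of the 8, beside 6.01% of all genes). The 15 checkpoint and p53 genes were split, 6 below and 9 above 0 (median 0.07, 0 called, 1 with an unadjusted p under 0.05). Trp53 differed by 0.44 (SE 0.18), Mdm2, the ligase that it induces, by -0.36, Chek1 by -0.50 and Plk2 by 0.40, all with overlapping groups.

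Gli1 itself read 6.34, 6.27 and 6.29 in the mutants, against 6.28, 6.48 and 6.51 in wild type and the groups overlapped; where its probe set lies relative to the lost part is not known here, so these values do not check the labels. Prostate epithelium was bright in every mouse: the mean level of 9 luminal markers was 11.50 to 11.55 in the mutants and 11.38 to 11.50 in wild type. Other cell type markers moved beside the cell cycle genes. Secretory products were lower in 8 of 8 genes (mean level 11.47 to 11.75 in the mutants, 11.97 to 12.50 in wild type), and smooth muscle markers in 8 of 8 (9.79 to 10.21 in the mutants, 10.29 to 10.76 in wild type). Macrophage markers were higher in 7 of 7 (8.81 to 9.20 in the mutants, 8.23 to 8.51 in wild type), and endothelial ones in 8 of 8 (7.70 to 7.96 in the mutants, 7.52 to 7.67 in wild type). Fibroblast markers were higher in 7 of 8 (9.90 to 10.36 in the mutants, 9.70 to 9.86 in wild type), and lymphocyte markers in 6 of 8 (5.85 to 6.03 in the mutants, 5.62 to 5.72 in wild type). Basal markers were higher in 6 of 7 (9.43 to 9.82 in the mutants, 9.22 to 9.58 in wild type), and urothelial markers in 2 of 6. No marker of any of these lists passed the test. Skeletal muscle markers were higher in 8 of 8 on average, at 7.14 to 8.40 in the mutants and 6.71 to 7.57 in wild type. They deviated by 0.93, 0.44 and -0.33 in the mutants, against -0.76, 0.10 and -0.39 in wild type, highest in the first mutant. Seminal vesicle markers deviated by -0.73, 0.93 and -0.67 in the mutants, against -0.70, -0.26 and 1.43 in wild type, so the second mutant and the third wild type stood apart. Stress-response genes were higher in 6 of 8, with a median of 0.07. The part of these differences in cell make-up in the values above was not tested.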

How the data were processed

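Expression was measured on 1-colour Affymetrix arrays, with biotin-labelled DNA targets made with the Ambion WT Expression kit per the labels' protocols. The authors deposited log2 intensities for 32025 probe sets, named by RefSeq transcript; the submitters' processing notes list Partek and RMA without versions, and the labels do not state the array model. RMA's summarised log2 values tend to understate fold changes of dim genes. Sample medians lay between 6.76 and 6.95.

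Of the probe sets, 25343 (79.1%) matched 1 gene of the RefSeq table for GRCm38.p6, giving 20263 genes, and the brightest probe set stood for a gene. The deposited log2 values went into lmFit and eBayes of limma 3.58.1 (R 4.3.3), two-sided, with 3 against 3 mice, no covariate and calls at an adjusted p under 0.05. The number of arrays limits the precision. Motifs were sought as exact matches in the RefSeq promoter windows, at the outermost start where a gene had several.

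The genes, lists and alternatives were chosen with earlier results of these data known. Values in every mouse are given for a chosen set of well-known cell cycle genes, for each gene whose groups do not overlap and for each with an unadjusted p under 0.05, 26 in all, and for Ccnb2, added after its values were seen. From each pathway list up to 4 genes with the lowest p are named. Mice were separate animals, so each p-value sets the difference of the groups against a variance between mice. In limma that variance is drawn toward a value shared by all genes. For Rbl2, with an SD of 0.02 in the mutants and 0.01 in wild type, the SE of 0.09 rests mostly on the shared value.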

Additional observations from a re-analysis of the deposited data

How the results depend on the processing

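Results were recomputed under 14 alternatives. Of the 26 cell cycle genes given by mouse, 17 had the same sign under each of them and 10 were called under at least one, all 10 of them with array weights, where 13.5% of all genes were called lower and 9.61% higher. Same-numbered mice did not deviate together in every pair (correlations of 0.162, 0.248 and -0.153), so the numbers were not taken to pair them; with the replicate block 16 genes of the table were called higher and 9 lower, against 2 and 2 without it, and 0 of the 43. With array weights 1948 genes were called higher and 2732 lower; the weight estimation stopped before convergence and gave the second wild-type mouse 7.221, against 0.353 to 2.263 for the other mice. There 3 of the 43 were called higher and 11 lower, 5 and 16 had an unadjusted p under 0.05 (beside 18.1% and 21.5% of all genes), the medians were -0.11 for the 28 genes with no phase and -0.04 for the checkpoint genes, and Cdkn1b (-0.04) and Cdkn2b (0.11) changed sign. Quantile normalization called 1 gene higher, median centring called 4 higher and 4 lower, and leaving out dim genes called 0 lower, with 5.63% of genes lower at an unadjusted p under 0.05; both scalings left 0 of the 43 higher without overlap.

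Leaving out wild-type mouse 1 and Gli1-/- mouse 2 together called 167 genes higher and 701 lower, and 4 of the 43 lower. It gave 7 of them higher and 21 lower without overlap (22.9% and 31% of all genes), and 4 higher and 13 lower at an unadjusted p under 0.05 (9.05% and 14.5% of all genes). Medians were then -0.52 for the CDK partners and -0.11 for the 28 genes with no phase, and Ccnd1 (0.04), Cdkn1b (-0.04), Mycn (-0.10) and Rb1 (0.06) changed sign. With single mice left out, 0 to 12 genes of the table were called higher and 2 to 6 lower. Of the 43, 1 to 4 were higher and 8 to 17 lower without overlap, beside 11.0% to 18.4% and 8.24% to 19.9% of all genes. At an unadjusted p under 0.05, 0 to 3 were higher and 1 to 12 lower, beside 4.24% to 7.34% and 2.33% to 9.78% of all genes. Medians ran between -0.22 and -0.02 for ubiquitin ligases, -0.02 and 0.11 for checkpoint genes, and -0.10 and -0.03 for genes with no phase. Signs turned for Ccnb1 (-0.43 to 0.13), Ccnd1 (-0.14 to 0.01), Cdk4 (-0.15 to 0.00), Cdkn1b (-0.04 to 0.07), Cdkn2a (-0.36 to 0.02), Cdkn2b (-0.09 to 0.11), Myc (-0.07 to 0.14), Mycn (-0.11 to 0.23) and Rb1 (-0.18 to 0.05). The cause of these shifts was not tested. With 3 mice a group, the intervals given for single genes limit what could be detected.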
